A study of Mus musculus with 816 samples.

Results

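Microglia of 22-month-old mice were compared with those of 2-month-old mice. The comparison used 24 of the 816 samples of the series, 13 old and 11 young mice, chosen from the in vivo table by the age given in the sample labels. All were male C57BL/6 mice with no transgene, and the labels call all 24 naive. The headers of the table call the 8 mice of batch 1 vehicle, and what was given to them is not stated. Each sample was the RNA of freshly isolated cells of 1 mouse: brains were perfused with cold PBS and digested with Accutase, myelin was removed over Percoll, and cells carrying CD11b were pulled out with magnetic beads. The libraries count transcripts at their 3′ ends and were made in 2 batches, and each batch held both ages, with 4 old and 4 young mice in batch 1 and 9 old and 7 young mice in batch 2. The 8 other mice of the table, 4 injected with LPS (2 mg/kg, 4 h) and 4 with PBS, were 2-month-old females and served only as a neighboring comparison.

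Microglia are the resident macrophages of the brain. In the resting state they carry receptors such as P2ry12 and Cx3cr1 and depend on TGF-beta and Csf1r signaling. Type I interferons, which cells release on sensing viral or misplaced nucleic acid, act through a receptor and transcription factors to switch on a broad set of antiviral genes, and interferon gamma from lymphocytes raises MHC molecules and guanylate-binding proteins. A further state, known as disease-associated microglia, is marked by Apoe, Axl, Clec7a, Itgax and Cst7, and part of it depends on the lipid receptor Trem2. Bacterial lipopolysaccharide (LPS) acts through Toll-like receptor 4 and NF-kB to induce cytokines.

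Values are counts per 1000000 mapped reads (CPM), and differences are given on the log2(CPM + 1) scale as old minus young with the standard error, from a limma fit with library batch as a term. Adjusted p-values are Benjamini-Hochberg values from that fit over all 9632 genes tested, those above 5 CPM in at least 11 mice, and a gene was called at an adjusted p under 0.05. The old mice, 13 in number, could meet that filter alone, and the 11 young mice only if all passed. Genes low in young mice could therefore enter through the old group alone. Mapped reads, estimated from the step between low values, were, in units of 1000000 reads, 2.82 to 5.68 in the young mice and 2.36 to 3.98 in the old mice. The listed genes summed to 885237 to 935291 CPM in batch 1 and to 980659 to 983443 CPM in batch 2. Of the defining microglia markers, Tmem119 (2753 to 9149.5 CPM over all mice), Csf1r, Selplg and Sall1 were not called, while P2ry12, Cx3cr1 and Fcrls were called lower. In bulk samples, fewer cells of a type and less RNA per cell cannot be told apart.

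The level of 1036 genes differed between the ages. In old mice 669 genes were higher, which is 6.95% of the genes tested, and 367 were lower, which is 3.81%. Among the genes called, the rises were larger than the falls. The filter admits genes low in young mice more easily than genes low in old mice, which favors large rises. Its part in this difference in size was not tested. Among the genes called, 140 rose at least 2-fold and 2 fell at least 2-fold, 382 (3.97% of the genes tested) were called with a change of at least 1.5-fold in either direction, and the median difference was 0.58 for the rises and -0.39 for the falls. With each mouse centered on its median gene, 556 genes were called higher and 528 lower, so the share of calls that were rises moved from 64.6% to 51.3%. The median difference over all genes was 0.01.

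Among the 23 lists of microglial states and pathways, type I interferon response genes had the most members called. Of 54 members 46 were tested, 36 of them rose and none fell, all 46 differences were positive, and the median was 0.86 against 0.01 over all genes. It was 0.81 in batch 1 and 0.88 in batch 2. The list spans sensors, signal carriers and effectors of the response, and members of each rose. The promoters of 4 of its called members are shown because they carry the core of the interferon-stimulated response element, the sequence through which type I interferons are known to act on their target genes. Each line gives the 150 bases upstream of the RefSeq start in the GRCm38.p6 build, read in the direction of the gene, with matches to the core on either strand in capitals. The core searched was GAAA, then any 2 bases, then GAAA, which reads as TTTC, any 2 bases and TTTC on the opposite strand.

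Ifit3, chr19:34583379-34583528, plus strand: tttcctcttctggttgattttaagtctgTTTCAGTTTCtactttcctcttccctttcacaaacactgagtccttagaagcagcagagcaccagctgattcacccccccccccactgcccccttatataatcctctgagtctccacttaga

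Ifit1, chr19:34640739-34640888, plus strand: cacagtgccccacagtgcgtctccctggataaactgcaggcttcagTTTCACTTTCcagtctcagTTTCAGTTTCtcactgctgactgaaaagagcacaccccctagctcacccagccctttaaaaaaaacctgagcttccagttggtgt

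Rsad2, chr12:26456453-26456602, minus strand: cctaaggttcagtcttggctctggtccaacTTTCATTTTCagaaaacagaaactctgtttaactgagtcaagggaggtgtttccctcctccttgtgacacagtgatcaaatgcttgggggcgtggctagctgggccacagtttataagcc

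Oas3, chr5:120777660-120777809, minus strand: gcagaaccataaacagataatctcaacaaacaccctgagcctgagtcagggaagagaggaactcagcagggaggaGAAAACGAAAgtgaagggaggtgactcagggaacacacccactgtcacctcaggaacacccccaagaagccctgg

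A promoter window of 300 bases was at hand for 25 of the 36 called members, and 12 of them (48%) held the core on either strand. It was also in 6 of the 9 windows of members that were tested and not called. Over all 27025 genes with a window the share was 3.99%, and over the tested genes it was 3.78%. Among all genes called higher the share was 9.07%, and among those called lower 3.24%. A match says that these letters are in the window and does not show binding.

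Among the effectors, Ifit3, an inhibitor of viral translation, ranged from 35.5 CPM through a median of 57.9 to 92.4 in young mice and from 99.7 through 171 to 358 in old mice. Every old mouse was above every young mouse, and the difference was 1.60 ± 0.15 (adjusted p = 4.65e-09). Ifit1, of the same family, was at 9.64 to 28.6 CPM in young mice and at 29.7 to 84.6 in old mice (1.40 ± 0.15, adjusted p = 5.51e-08). The groups did not overlap for Ifit1 either. Rsad2, which encodes the antiviral enzyme viperin, rose from a median of 4.37 CPM (3.30 to 9.64) to 14.9 (11 to 29.3), again without overlap (1.5 ± 0.15). Samd9l, a restriction factor, rose from 16.8 CPM (9.39 to 18.8) to 38.8 (27.2 to 56.0), and its groups were likewise apart (1.29 ± 0.13). Over all genes tested, old mice lay above all young mice of their batch for 50 genes (0.519%) and below them for 5 genes (0.0519%), and 17 of the 50 were on the interferon list.

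Members of the 2′-5′ oligoadenylate synthetase family, which senses double-stranded RNA, rose as well. Oasl2 was at 9.91, 14 and 27.5 CPM (lowest, median and highest) in young mice and at 17.7, 56.0 and 92.7 in old mice. Within each batch every old mouse exceeded every young one, and 11 of 13 old mice exceeded all young mice (1.67 ± 0.16, adjusted p = 6.29e-09). Oasl1 was among the 12 largest rises of all genes (2.08 ± 0.32), with medians of 1.89 and 12 CPM and groups that overlapped between 2.52 and 5.60 CPM. Oas3 rose by 1.20 ± 0.19 and Oas2 by 1.58 ± 0.22.

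Of the signal carriers, Irf7, the factor that amplifies type I interferon production, rose by 1.57 ± 0.20, from 9.39 CPM (4.54 to 19.5) to 32.7 (14.8 to 70.6). For this gene 11 of 13 old mice exceeded all young mice. The transcription factor Stat2 rose by 0.37 ± 0.11, and its partner Irf9 missed the threshold at 0.21 ± 0.07 (adjusted p = 0.0501). The RNA sensors Ifih1 (0.85 ± 0.16), Dhx58 (0.87 ± 0.11) and Ddx58 (0.35 ± 0.09) were called higher, as was Usp18, a brake on the receptor (1.25 ± 0.17). Isg15, a ubiquitin-like modifier, was not called: its level spanned 5.61 to 28.2 CPM in young mice and 13.4 to 32.9 in old mice (0.27 ± 0.15, adjusted p = 0.299). Cxcl10 did not pass the filter on low values.

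The membrane proteins of the list changed too. Ifitm3, which blocks viral entry, rose by 1.55 ± 0.16, from a median of 64.7 CPM to 230.0, and 11 of 13 old mice exceeded all young mice. Lgals3bp, a secreted glycoprotein, ranged from 88.3 to 276 CPM in young mice and from 224 to 629 in old mice (1.25 ± 0.09, adjusted p = 1.64e-11). Its groups were apart within each batch and overlapped across batches. Bst2, the tether that holds budding viruses at the surface, rose by 0.73 ± 0.09, and 12 of 13 old mice exceeded all young mice.

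**Figure D1:**
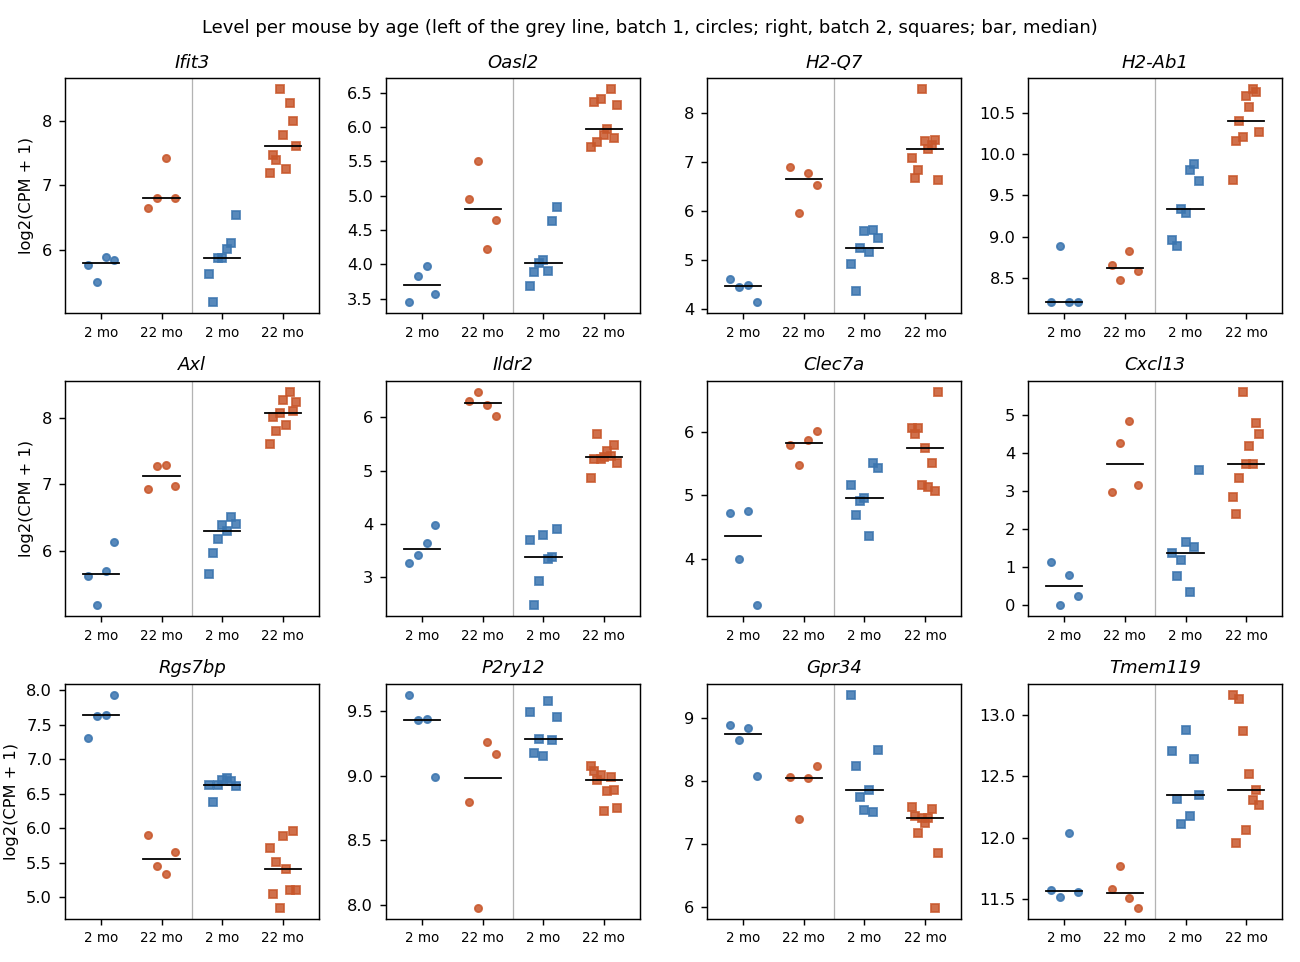
Level of 12 genes in each of the 24 mice on the log2(CPM + 1) scale, with young (2 mo, blue) and old (22 mo, orange) mice side by side in batch 1 (circles) and batch 2 (squares), bars marking group medians and a scale of its own for each gene. Ifit3, H2-Q7, Axl, Ildr2 and Rgs7bp separate the ages without overlap, while the microglia marker Tmem119 overlaps fully.

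Genes of the interferon gamma response showed fewer calls, with 9 of 19 tested members higher, none lower and a median of 0.35. Gbp2, a guanylate-binding protein, rose from 16.7 CPM (7.86 to 29.8) to 30.8 (12.7 to 118), and 7 of 13 old mice exceeded all young mice (1.04 ± 0.19). Iigp1, a GTPase of pathogen vacuoles, rose by 1.53 ± 0.25, and Fgl2, an immunosuppressive membrane protein, by 1.46 ± 0.17. Cd274, which encodes the ligand PD-L1, rose by 0.57 ± 0.15. Irf1 and Irf8, transcription factors of the response, were not called (0.25 ± 0.10, adjusted p = 0.141, and 0.16 ± 0.07, adjusted p = 0.125). Naaa, an acid amidase that the study uses as hub gene for its interferon gamma module, was not called either (0.14 ± 0.17).

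MHC class I genes rose together with their peptide-loading machinery. Of 24 members tested 13 were higher and 1 was lower, with a median of 0.37. H2-Q7, a nonclassical class I molecule, was at 16.6, 29.3 and 47.7 CPM in young mice and at 61.4, 118 and 355 in old mice. No old mouse overlapped a young one, and the rise (2.07 ± 0.16, adjusted p = 9.08e-11) was also called in each batch taken alone. The classical genes H2-K1 (1.01 ± 0.09) and H2-D1 (1.00 ± 0.09) stood at medians of 678 and 487 CPM in young mice and 1407 and 977 in old mice. Class I genes are closely related in sequence, so reads may be shared between them. B2m, the common light chain, rose by 0.28 ± 0.08. Psmb8 and Psmb9, subunits of the immunoproteasome, rose by 0.55 ± 0.09 and 0.46 ± 0.13, and its activator subunit Psme1 by 0.47 ± 0.08. The member that fell was Pdia3, a chaperone of the loading complex (-0.39 ± 0.10).

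All 9 MHC class II genes tested were called higher, with a median of 0.65. H2-Ab1, a beta chain, was at 294, 495 and 943 CPM in young mice and at 356, 1180.5 and 1764 in old mice (0.74 ± 0.14, adjusted p = 0.000332). The groups overlapped, and 8 of 13 old mice were above all young mice. Cd74, the invariant chain, rose from a median of 66.1 CPM to 100.5 (0.74 ± 0.15), and the alpha chain H2-Aa from 900.5 to 1392 (0.65 ± 0.13). The peptide exchange genes H2-DMa, H2-DMb1, H2-DMb2, H2-Oa and H2-Ob rose by 0.27 to 0.82. In batch 1 alone the median of the list was 0.39 with none of its members called, and in batch 2 it was 0.72 with 7 called. Ciita, the master regulator of class II genes, was below the filter on low values.

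Disease-associated microglia genes followed, with 24 of 40 tested members higher, none lower and a median of 0.51. Axl, a receptor that takes up dying cells, was the member with the smallest adjusted p. It was at 35.2, 69.3 and 90.2 CPM in young mice and at 122, 237 and 336 in old mice, so the groups were apart, and it rose by 1.72 ± 0.11 (adjusted p = 1.61e-12). Apoe, the main lipid carrier of the brain, rose from a median of 3072 CPM (2072 to 6366) to 7649 (3886 to 13779), with 7 of 13 old mice above all young mice (1.09 ± 0.18). Clec7a, a receptor for fungal glucans, was at 8.64 to 44.4 CPM in young mice and at 32.7 to 98.1 in old mice (1.01 ± 0.19). Itgax, the integrin CD11c, rose by 1.12 ± 0.21 and the protease inhibitor Cst7 by 1.41 ± 0.24. The groups of all these genes but Axl overlapped.

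Further members of the list were the galectin Lgals3 (1.31 ± 0.17), the NADPH oxidase subunit Cybb (1.26 ± 0.16), the lipase Lpl (0.57 ± 0.12), lysozyme Lyz2 (0.90 ± 0.12), the lymphocyte antigen Cd52 (0.98 ± 0.14) and the ferritin chains Fth1 (0.54 ± 0.09) and Ftl1 (0.58 ± 0.10). Cybb stood apart between the ages, at 38.2 to 82.8 CPM in young mice and 89.1 to 240.1 in old mice. The receptor Trem2 and its adaptor Tyrobp rose by 0.33 ± 0.09 and 0.23 ± 0.07. Spp1 and Gpnmb, secreted and membrane glycoproteins of this state, were not called (0.63 ± 0.36, adjusted p = 0.31, and 0.65 ± 0.28, adjusted p = 0.154). Spp1 spanned 2.37 to 97.0 CPM among young mice alone.

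Homeostatic genes fell in part. Of 38 tested members 14 were lower and 2, Trem2 and Tyrobp, were higher, and the median was -0.18. P2ry12, the ADP receptor that guides processes to injury, fell by 0.47 on the log2 scale (SE 0.10, adjusted p = 0.00231), from a median of 689 CPM (508 to 791) to 499.8 (251 to 615). Gpr34, a receptor for lysophosphatidylserine, fell by 0.83 (SE 0.18), from 302 CPM (181 to 661) to 169.5 (61.9 to 302), and 8 of 13 old mice were below all young mice. Golm1, a Golgi membrane protein, had the smallest adjusted p of the list (3.28e-06). It lay at 915 to 1595 CPM in young mice and 633 to 1071 in old mice and was apart within each batch (-0.47 ± 0.06).

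Siglech, a sialic acid receptor, fell by 0.42 (SE 0.07), Tgfbr1, a TGF-beta receptor, by 0.39 (SE 0.09), and the matrix protein Sparc by 0.35 (SE 0.07). Cx3cr1, the fractalkine receptor, fell by 0.20 (SE 0.07, adjusted p = 0.0485), and its adjusted p reached 0.0929 when 1 mouse was left out. Sall1, a transcription factor of microglial identity, was not called (-0.08 ± 0.09, adjusted p = 0.628). Csf1r, the receptor microglia need to survive, stood at medians of 22008 CPM in young mice and 21409.8 in old mice (-0.04 ± 0.08).

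**Figure D2:**
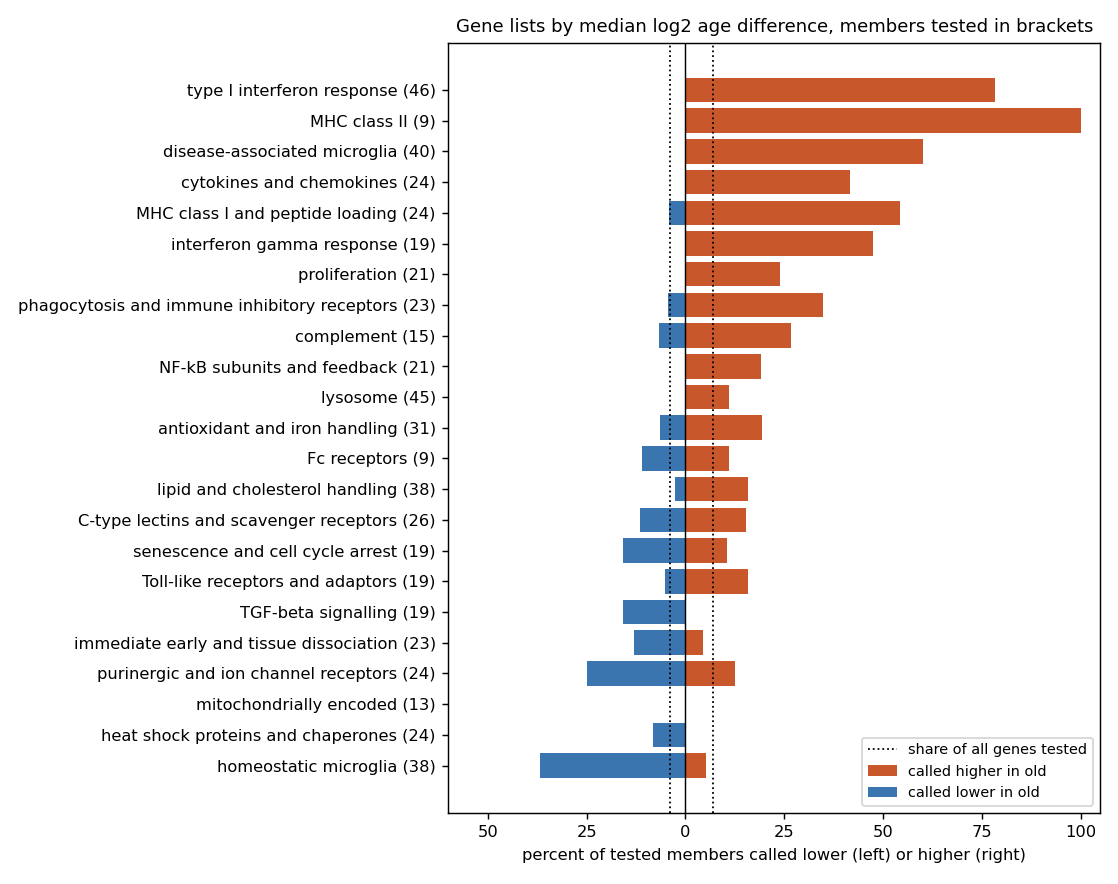
Share of tested members of each of the 23 lists of microglial states and pathways called higher (orange, to the right) or lower (blue, to the left) in old mice, in percent, with lists ordered by median difference and dotted lines at the shares of all genes tested, 6.95% and 3.81%. Among these lists, MHC class II (9 of 9) and type I interferon genes (36 of 46) have the highest shares of rises, and homeostatic microglia genes (14 of 38) the highest share of falls.

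Cytokine and chemokine genes included 10 rises and no fall among 24 tested, with a median of 0.43. Cxcl13, a chemokine that draws B cells, had the largest difference of all genes called (2.71 ± 0.34, adjusted p = 1.33e-06). It was at 0, 1.19 and 10.9 CPM in young mice and at 4.33, 12.27 and 48.1 in old mice, and 8 of 13 old mice were above all young mice. Tnf rose by 1.35 ± 0.19, from a median of 11.3 CPM (1.42 to 27.6) to 34 (5.08 to 44.2), and the macrophage attractants Ccl3 and Ccl4 by 1.16 ± 0.18 and 0.73 ± 0.12. Il1b rose by 0.92 ± 0.25 at a low level, with medians of 3.70 and 7.34 CPM.

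Receptors that recognize microbes, antibodies and complement changed in a few members only. The shares over all genes tested were 6.95% higher and 3.81% lower. Tlr2, for bacterial lipoproteins, rose by 0.65 ± 0.09 and was apart within each batch, and Tlr3, for double-stranded RNA, fell by 0.39 (SE 0.10). Of 9 Fc receptor genes the activating Fcgr4 rose (1.29 ± 0.20) and Fcrls fell (-0.36 ± 0.10). Of 15 complement genes C3 (1.59 ± 0.28) and C4b (1.51 ± 0.32) and the integrins Itgax and Itgb2 rose. Of 23 phagocytosis and immune inhibitory receptor genes 8 rose and 1 fell. Cd22, a sialic acid receptor best known from B cells, went from 19.6 CPM (11.8 to 38.9) to 62.4 (29.1 to 115) and was apart within each batch (1.30 ± 0.14).

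The list counts that follow stand beside 6.95% called higher and 3.81% called lower over all genes tested. Lysosomal genes moved little, with 5 of 45 called higher and a median of 0.11. The rises included the cathepsin Ctsz (0.47 ± 0.10) and the cholesterol carrier Npc2 (0.45 ± 0.08). Among antioxidant and iron genes 6 of 31 (19.4%) rose and 2 (6.45%) fell. Slc40a1, the iron exporter ferroportin, fell by 0.56 (SE 0.09), from a median of 184 CPM to 110.1, whereas both ferritin chains, which store iron, rose. The count of rises in that list was 3 without young mouse 5 and also without old mouse 2. Of 21 proliferation genes 5 (23.8%) rose, including Top2a (0.48 ± 0.12) and Mcm2 (0.40 ± 0.11). Of 19 senescence genes 2 (10.5%) rose and 3 (15.8%) fell. The proliferation list had 0 rises by limma in either batch alone, and 0, 4 and 0 in fits with a term for neutrophil, T and NK cell, and choroid plexus markers, with medians of 0.18, 0.27 and 0.26 against 0.28 without such a term. Without the 3 old mice with the most neutrophil marker RNA it had 2 rises. The falls in senescence genes were at 1 without any single one of young mice 3, 5, 6 and 7 and old mice 3, 5, 6, 7, 8, 10, 11 and 13. Cdkn1a, the cell cycle inhibitor p21, was at 35.5 to 77.0 CPM in young mice and 58.2 to 116 in old mice (0.70 ± 0.11). Hspa5, the chaperone of the endoplasmic reticulum, fell by 0.54 (SE 0.11), with -0.14 in batch 1 and -0.74 in batch 2. None of the 13 mitochondrially encoded genes was called, and purinergic and ion channel genes had 6 falls and 3 rises of 24, with the falls at 3 without young mouse 9.

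Several of the genes with the largest changes were on none of these lists. Ildr2, an immunoglobulin-like membrane protein, was at 4.54, 9.59 and 14.7 CPM in young mice and at 27.9, 40.1 and 88.1 in old mice. Pde2a, a phosphodiesterase that breaks down cyclic nucleotides, was at 40.8, 62.8 and 80.5 CPM in young mice and at 131, 222 and 277 in old mice. Neither gene overlapped between the ages (2.18 ± 0.15, adjusted p = 5.20e-12, and 1.72 ± 0.11, adjusted p = 1.61e-12). The same held for Col6a3, a chain of collagen VI (1.53 ± 0.10), Crlf2, a chain of the receptor for thymic stromal lymphopoietin (1.47 ± 0.10), the peptidase Naalad2 (1.40 ± 0.12) and the adhesion molecule Vcam1 (1.53 ± 0.13). Pdcd1, the inhibitory receptor PD-1 known from T cells, rose from 2.38 CPM (0.752 to 10.3) to 22.3 (9.39 to 34.4), with 12 of 13 old mice above all young mice (2.26 ± 0.27).

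Rgs7bp, which anchors regulators of G protein signaling at the membrane, was the largest fall. It was at 82.5, 103 and 244 CPM in young mice and at 27.7, 42.9 and 61.3 in old mice, so every old mouse was below every young one (-1.50 ± 0.13, adjusted p = 9.42e-10). Adgrl2, an adhesion receptor of the latrophilin family, fell by 0.78 (SE 0.11), and the sulfotransferase Chst7 by 0.53 (SE 0.09). Both were apart within each batch. Scoc, a Golgi protein involved in autophagy, fell by 0.95 (SE 0.13), from 199.9 CPM to 88.6, the nucleoside diphosphate kinase Nme4 by 0.87 (SE 0.15) and the transcription factor Sox13 by 0.99 (SE 0.22).

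The library batches served as repeats of each other. In batch 1 alone, with 4 mice of each age, 20 genes were called higher (0.208%) and 2 lower (0.0208%), and in batch 2 589 were higher (6.12%) and 340 lower (3.53%). All 20 rises of batch 1 were positive in batch 2, where 53.8% of all genes were. Their median differences were 1.39 in batch 1 and 1.37 in batch 2. The 2 falls of batch 1 were negative in batch 2, where 46.2% of all genes were, with medians of -1.50 in batch 1 and -0.70 in batch 2. Of the 589 rises of batch 2, 492 (83.5%) were positive in batch 1, where 49.2% of all genes were. For the falls of batch 2 it was 259 of 340 (76.2%), against 50.7% of all genes. The genes called in each batch separately were 19 rises, among them Axl, H2-Q7, H2-K1, H2-D1, Ifit3, Ifit1, Lgals3bp, Ildr2, Pde2a, Col6a3, Crlf2, Cxcl13, Pdcd1 and Itgax, and 1 fall, Rgs7bp. No gene was called for an age by batch interaction (0%) by limma, with 901 at an unadjusted p under 0.05 and a smallest adjusted p of 0.143.

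**Figure D3:**
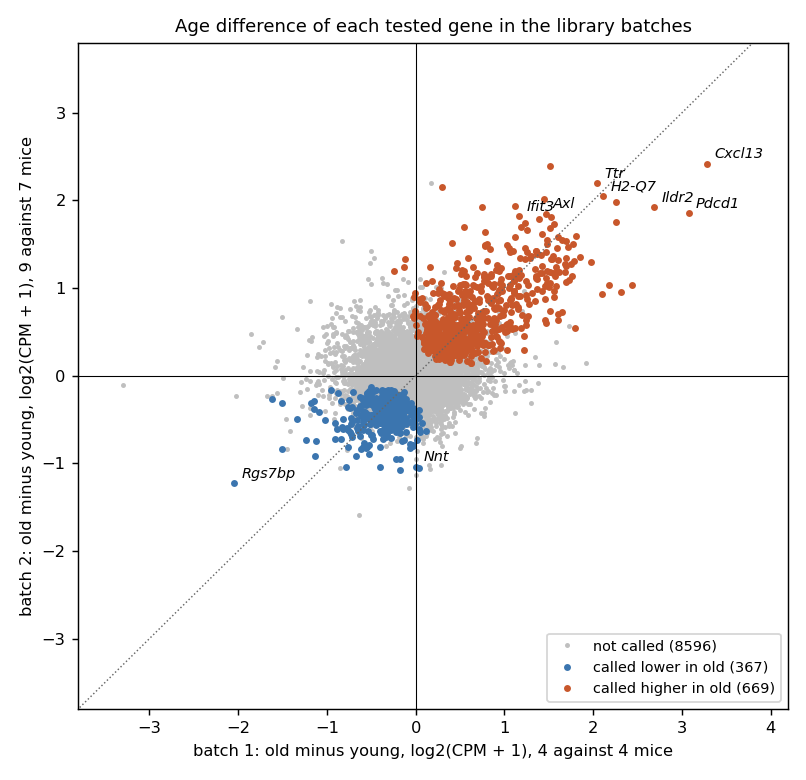
Difference between old and young mice of each of the 9632 tested genes in batch 1 (horizontal, log2, 4 against 4 mice) and batch 2 (vertical, log2, 9 against 7 mice), with genes called higher in orange, lower in blue and not called in gray. Of the genes called with both batches, 660 of 669 rises and 356 of 367 falls had the same sign in each. These genes were called from the same 2 batches, so a shared sign is partly built into the call and is no separate repeat.

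Nnt, a mitochondrial transhydrogenase that is partly deleted in the substrain C57BL/6J, showed where a batch carried a call. In batch 2 it was at 24.64 to 38.3 CPM in the young mice and at 10.8 to 21.1 in the old mice, with a difference of -1.04. In batch 1 it was at 11.3 to 20.1 CPM in young mice and 8.97 to 18.3 in old mice, and the difference was 0.00. The 7 young mice of batch 2 lay above all other mice, and the call over both batches was -0.69 ± 0.16. The substrain of the aging mice is not given in the sources used here. If it differed between the ages of batch 2, its effect on other genes could not be told apart from age in that batch. This was not tested.

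Markers of some other cells that CD11b beads or debris can carry along were also higher in old mice. For comparison, 6.95% of all genes tested were called higher and 3.81% lower. Neutrophil markers summed to 317 to 1909 CPM in young mice and 586 to 6082 in old mice, and 10 of 12 tested of 14 were called higher, with a median of 1.17. Monocyte markers summed to 86.9 to 257 CPM in young mice and 160.3 to 779 in old mice, with 9 of 11 tested of 14 called higher. The ranges overlapped for both lists. S100a9, a calcium-binding protein abundant in neutrophils, was at 69.0, 272 and 619 CPM in young mice and 163, 566 and 1598 in old mice (1.18 ± 0.30).

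T cell markers summed to 24.5 to 83.1 CPM in young mice and 30.2 to 269 in old mice, and only 4 of 18 passed the filter. Trbc2, a constant segment of the T cell receptor (2.09 ± 0.27), the kinase Lck (1.83 ± 0.25) and Cd8b1, a chain of the CD8 coreceptor (1.63 ± 0.23), were higher, and Il7r was lower (-0.78 ± 0.22). The NK cell list, with 2 of 12 members tested, Nkg7 and Ccl5, both higher, summed to 12.16 to 69.5 CPM in young mice and 26.3 to 454 in old mice. Members of the T and NK cell lists could pass the filter through the old mice alone, which favors rises among those tested. The defining markers Cd3e and Ncr1 were at most 11.7 and 2.02 CPM in any mouse. Ccl5 is also on the list of cytokines and chemokines. The NK cell markers summed to 26.6 to 48.0 CPM in PBS mice and to 415 to 657 CPM in LPS mice. Which cells this RNA came from was not tested. Ttr, the thyroxine carrier secreted in bulk by the choroid plexus, rose from a median of 66.0 CPM (26.7 to 101) to 281 (59.3 to 851), by 2.14 ± 0.33. Tmem212 of the same list was at 0 in all 24 mice.

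Other cell types moved less. Of 5 tested B and plasma cell genes Igkc rose and Cd79b fell, and Rag1 was at 0 in all mice. Border-associated macrophage genes had 2 falls, Lyve1 and Stab1, and no rise among 13, and their sums overlapped over both batches (435 to 822 CPM in young and 315 to 842 in old mice). In batch 1 the sums were lower in old mice without overlap, at 315 to 377 CPM against 446 to 514 CPM. Of 8 dendritic cell genes 1, Cst3, fell. Astrocyte genes had 1 rise, Gfap (0.97 ± 0.28), and 1 fall, Slc1a3, of 9, neuronal genes 3 rises of 9 (0 without young mouse 1, young mouse 6 or old mouse 7, and 5 without young mouse 4), endothelial genes 1 rise, Flt1, of 4, and the single tested pericyte gene, Vtn, rose. No erythrocyte, oligodendrocyte or oligodendrocyte precursor gene was called.

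**Figure D4:**
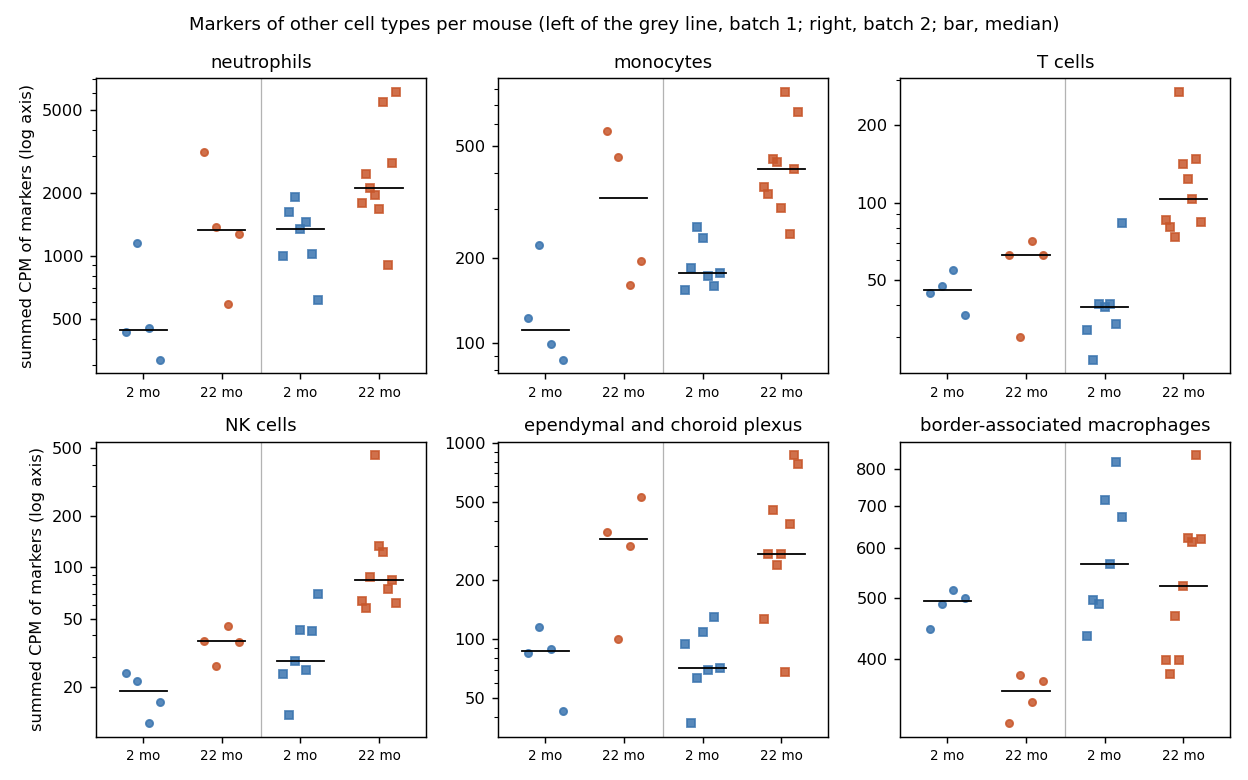
Summed CPM of the markers of 6 other cell types in each mouse on log axes, with young (2 mo, blue) and old (22 mo, orange) mice side by side in batch 1 (circles, left) and batch 2 (squares, right) and bars at group medians. Neutrophil and monocyte sums are shifted upward in old mice with overlap, and border-associated macrophage sums are lower in old mice of batch 1 and overlap in batch 2.

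The main counts were repeated with these marker sums in the fit, an analysis chosen after the values had been seen. With a term for neutrophil markers 402 genes were called higher and 165 lower, with a term for T and NK cell markers 249 and 87, and with a term for ependymal and choroid plexus markers 213 and 96. Without the 3 old mice whose neutrophil markers exceeded 3000 CPM, 574 were higher and 300 lower. The type I interferon list had 34, 28, 28 and 35 members higher in these fits, in that order, with medians of 0.93, 0.78, 0.79 and 0.85. The disease-associated list had 21, 14, 12 and 25 rises, with medians of 0.54, 0.48, 0.43 and 0.54. The MHC class I list had 8, 5, 5 and 13 rises, with medians of 0.35, 0.18, 0.27 and 0.37. The interferon gamma list had 7, 1, 2 and 8 rises, with medians of 0.37, 0.31, 0.31 and 0.38. MHC class II had 8, 0, 0 and 9, with medians of 0.71, 0.35, 0.46 and 0.66. The homeostatic list had 5, 6, 5 and 11 falls, with medians from -0.16 to -0.24. Ccl5, also on the cytokine list, is part of the T and NK cell term. The part of admixed cells in the remaining differences was not tested.

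The spread between mice was compared as well. No gene was called by limma for a difference in deviation from the group mean (0%), with 934 at an unadjusted p under 0.05, of which 640 were more variable in old mice. The smallest adjusted p was 0.164. Spread was larger in old mice for 58.7% of genes.

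Gene modules that the study derived from cultured microglia, 31 of them in the lists used here, were read in these mice as further lists. Their counts stand beside 6.95% higher and 3.81% lower over all genes tested. BR_turquoise, which the study links to type I interferon, had 55 of 119 tested members higher and 4 lower (median 0.38). BR_blue had 17 of 40 higher and none lower (0.23), and PI_turquoise, linked to interferon gamma, 12 of 34 and none (0.21). CY_turquoise, a Toll-like receptor module, had 13 of 32 higher and 2 lower (0.37), with Cybb, C3, Tlr2 and Nfkb2 among the rises. Its hub gene Clec4e was below the filter on low values. The hub gene Irak3 of YE_turquoise, a module with 14 of 87 higher and 5 lower, was not called (-0.04 ± 0.23).

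CY_yellow had 7 of 16 tested members higher and none lower, with a median of 0.27. They were the gelatinase Mmp9 (1.40 ± 0.23), S100a8 (1.07 ± 0.29), the protease inhibitor Slpi (1.28 ± 0.30), haptoglobin Hp (1.52 ± 0.36), the zinc transporter Slc39a4 (0.88 ± 0.14), Fth1 and Rasa2. S100a8 is on the neutrophil list, and Mmp9, Slpi and Hp are also known from neutrophils, whose part in these rises was not tested. In the fits with terms for neutrophil, T and NK cell, and choroid plexus markers and without the 3 old mice, in that order, CY_yellow had 3, 5, 4 and 5 rises, with medians of 0.23, 0.27, 0.43 and 0.28. CY_turquoise had 5, 8, 8 and 12 rises in the same fits, with medians of 0.32, 0.31, 0.36 and 0.34. S100a8 is itself part of the neutrophil term.

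LPS given 4 h before isolation served as the nearest comparison in fresh microglia. Of 9012 genes tested, 792 were higher with LPS (8.79%) and 1225 lower (13.6%). The median over all genes was -0.19 and became -0.08 after centering, so small falls with LPS depend on the scaling. The LPS and aging mice share no animal and differ in sex. Of 587 genes higher with age and tested in both, 167 (28.4%) were higher with LPS, against 7.96% of all genes tested in both, and 34 were lower. Of 364 genes lower with age, 118 (32.4%) were lower with LPS, against 13.9% of all, and 27 were higher. The age and LPS differences themselves differed for 1597 genes (16.6%) in a fit of all 32 mice, 1084 of them more positive with age, and after centering 493 were more positive and 732 more negative with age.

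By list, type I interferon genes were higher in both, 36 of 46 with age and 32 of 44 with LPS, with medians of 0.86 and 1.12. The difference between the effects was called more negative with age for 12 members and more positive for 4. After centering these counts were 15 and 2. Of the MHC class II genes 9 of 9 were higher with age and 0 of 8 with LPS by limma, and the difference between the effects was called for 5 members, or 1 after centering. NF-kB subunits and feedback genes rose by less with age than with LPS (medians 0.14 and 2.28). With age 4 of 21 were higher and none lower, and with LPS 19 of 21 were higher. The difference between the effects was called for 19 members with and without centering. The modules CY_red and CY_brown had 16 of 19 and 10 of 17 members higher with LPS and 6 of 20 and 1 of 18 with age. Immediate early genes had 16 of 22 higher with LPS, and with age 1 of 23 higher and 3 lower. The falls with age were at 1 without young mouse 3, 6 or 7 or old mouse 2 or 3.

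**Figure D5:**
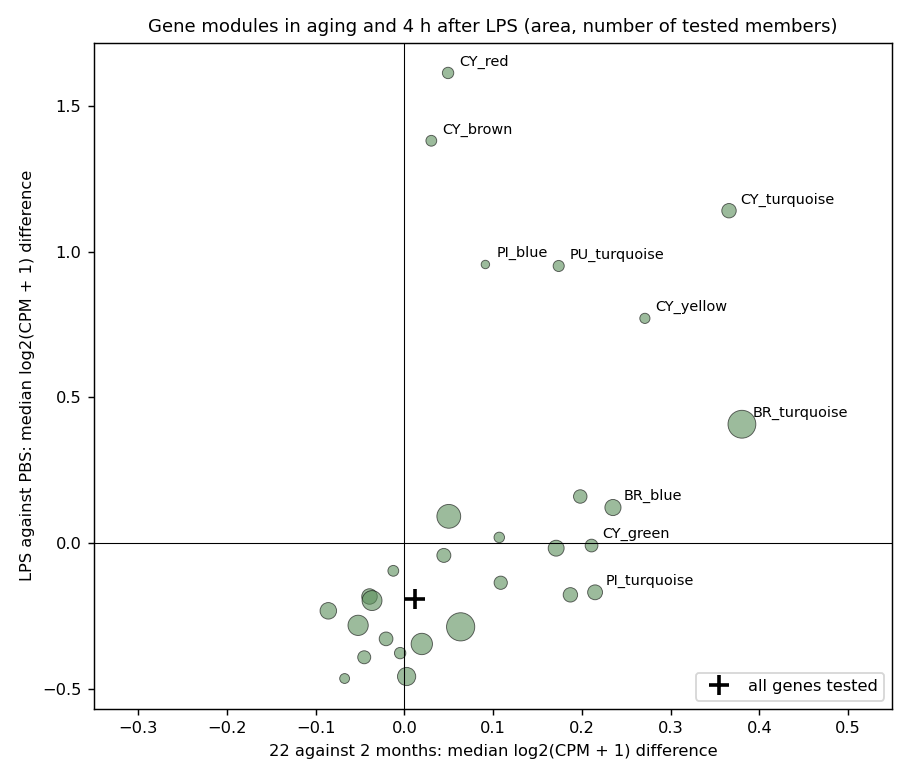
Median log2(CPM + 1) difference of the members of each gene module with at least 10 tested members, 22 against 2 months (horizontal) and LPS against PBS (vertical), with area showing the number of tested members and a cross at the median of all genes (0.01 and -0.19). CY_red and CY_brown lie high with LPS and near 0 with age, and BR_turquoise and CY_turquoise are positive in both.

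Single genes showed both patterns on the log2(CPM + 1) scale. Axl was called higher with age and not with LPS (0.28, adjusted p = 0.305), and the effects differed by 1.44 (adjusted p = 1.01e-05). The same pattern held for Ildr2 (difference of effects 2.58), Pde2a (1.64), Lgals3bp (1.30), Clec7a (1.52) and Cd22 (1.25). Tnf and Ccl4 rose in both and by more with LPS, by 4.94 against 1.35 and by 4.34 against 0.73, and Ifit1 by 3.56 against 1.40. Btg2, an antiproliferative early gene, fell with age (-0.21 ± 0.07, with adjusted p up to 0.0996 by limma when 1 mouse was left out) and rose with LPS (2.72), as did the DNA sensor Mb21d1 (-0.36 ± 0.08 and 2.15). Nfkbia and Zfp36, feedback inhibitors of the inflammatory response, rose by 3.16 and 3.61 with LPS and were not called with age (-0.13 ± 0.10 and -0.18 ± 0.09).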

How the data were processed

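RNA of CD11b-selected microglia from 24 mice was read from 3′-end libraries. Per the labels and the study's methods, the authors amplified the RNA with T7 polymerase, mapped reads with Salmon 0.7.1 to Ensembl build 81 transcripts and deposited counts per 1000000 mapped reads (CPM) per gene, with no division by length. The methods call these values TPM, although the formula given there holds no gene length, and they give n = 12 where the labels give 13 old and 11 young mice. The processing notes name the genome build mm8. CPM are not counts, and whole reads could not be recovered, so no count model was run. Age was fitted with limma 3.58.1 (R 4.3.3) on log2(CPM + 1) with trend and a batch term, over the 9632 of 29858 listed genes above 5 CPM in at least 11 mice, and p-values were adjusted by the Benjamini-Hochberg method. The same fit was run per batch, with an age by batch term, on the 8 LPS and PBS mice, and as a contrast of both effects. The fits were tested on simulated data. Tables and figures were made with Python 3.11.15, numpy 2.4.6, pandas 2.3.3, scipy 1.17.1 and matplotlib 3.10.9. Positions and promoters come from RefSeq on GRCm38.p6.

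Groups follow the sample labels, although the table header calls the 8 mice of batch 1 vehicle. Nothing states whether mice shared a cage or litter, so p-values measure the spread between these mice. Members and lists were chosen with earlier results of these data known, and the modules were taken from the study's table. Genes were named by rule: the 12 largest rises and falls with the same direction in both batches, up to 6 members of each list by adjusted p and its first 2 members, the microglia markers, hub genes, and genes opposite to LPS. Named after their values were seen were B2m, Bst2, Cd274, Col6a3, Crlf2, Cst7, Ddx58, Dhx58, H2-DMa, H2-DMb1, H2-Oa, Ifih1, Ifitm3, Irf7, Irf9, Isg15, Naalad2, Oas2, Oas3, Pdia3, Psmb9, Rasa2, Stat2, Tyrobp, Usp18 and the runs of neighboring genes. Results for some genes are not reported here. Alternatives covered the pseudocount, filter, scaling, batch term, test and each mouse left out.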

Additional observations from a re-analysis of the deposited data

Results flagged for a closer look

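Within each age and batch, 22 marker sums, mean list levels and library measures were checked for a single mouse far from the rest of its group. Of the 88 groups checked 10 held one. The rule flags about 5% of groups when values are normally distributed and independent, which was not tested for these measures. The count is therefore not a comparison with chance. Old mouse 8 of batch 2 was highest for T cell markers, at 269 CPM with the next mouse at 147, and for NK cell markers, at 454 CPM with the next at 133. Young mouse 11 of batch 2 was highest for T cell markers among the young mice, at 83.1 CPM against 40.4. Young mouse 2 of batch 1 had 1156 CPM of neutrophil markers against 452 in the next mouse.

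In batch 1, erythrocyte markers summed to 611 CPM in old mouse 1 with the next mouse at 149, and to 463 CPM in young mouse 1 with the next at 102. Old mouse 1 also had the highest sum of astrocyte markers, 961 CPM against 701. Young mouse 4 was highest for oligodendrocyte markers, 1939 CPM against 1154, and old mouse 2 was lowest for B and plasma cell markers, 243 CPM with the next mouse at 415. Old mouse 7 of batch 2 had the deepest library of its group, 3.98 against 3.44 in units of 1000000 mapped reads.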

How the results depend on the processing

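The number of genes called for age was 1036. It was 312 without the batch term, 567 with a neutrophil marker term, 336 with a T and NK cell marker term, 309 with a choroid plexus marker term, 382 at a minimum of 1.5-fold, 22 in batch 1 alone and 55 by an exact rank-sum test with Bonferroni adjustment (832 with Benjamini-Hochberg). Leaving out 1 mouse gave 856 to 1065 calls with both batches and 13 to 24 in batch 1, the lowest without young mouse 1. The quantile scaling gave 565 rises and 481 falls. The marker terms were chosen after the data were seen. Differences near 0 turned sign in several fits. Csf1r was at 0.013 without the batch term, 0.034 with quantile scaling, 0.058 with the neutrophil term, 0.0074 with the choroid plexus term and 0.017 in batch 1. Irak3 was at 0.011 without the batch term, 0.31 with the T and NK cell term, 0.0041 in batch 2 and -0.13 to 0.061 with 1 mouse left out. Tmem119 was at -0.035 after centering, -0.0042 when rescaled without mitochondrial and hemoglobin genes, -0.068 with the T and NK cell term, -0.097 in batch 1 and -0.046 to 0.052 with 1 mouse left out. Naaa was at -0.12 in batch 2 and -0.024 to 0.22 with 1 mouse left out. In batch 1 Nfkbia was at 0.19, Zfp36 at 0.14 and Nnt at 0.0042, and Sall1 was at 0.040 in batch 2. With the neutrophil term, which contains S100a8 and S100a9, S100a8 was at -0.12, S100a9 at -0.066 and Wfdc21 at -0.11. Calls lost in at least 1 fit with 1 mouse left out included Btg2, H2-DMb1, Tyrobp, Rasa2, Wfdc21, Wfdc17, Stat2, H2-DMa, Cst3, Cd79b and Slc1a3, with adjusted p by limma up to 0.0524 (H2-DMa) to 0.0996 (Btg2). The cause of these shifts was not tested. No paired analysis was possible because the replicate numbers of young and old mice were given in accession order. The depth of 2.36 to 5.68 (in units of 1000000 reads) limits genes near 5 CPM, where 1 CPM stands for only a few reads.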

Other observations

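Genes called in the same direction lay next to each other at 17 places in the genome, counted as runs of at least 3 neighboring tested genes among the 9548 with a RefSeq position on GRCm38.p6. The longest run held 6 genes of the MHC region on chromosome 17 (34119693 to 34201454), namely H2-DMa, H2-DMb2, H2-DMb1, Psmb9, Tap1 and Psmb8, which rose by 0.27 to 0.82. A further MHC run, H2-Ob, H2-Ab1, H2-Aa and H2-Eb1 (34238905 to 34316674), rose by 0.58 to 0.74. On chromosome 11 the chemokines Ccl3 and Ccl4 and their neighbors Wfdc17 and Wfdc21 rose by 0.73 to 1.16, and the Schlafen genes Slfn2, Slfn1 and Slfn4 by 1.21 to 1.41. The entry inhibitors Ifitm2, Ifitm1, Ifitm3 and Ifitm6 on chromosome 7 rose by 0.86 to 1.55, and Ifit3, Ifit3b and Ifit1 on chromosome 19 by 1.40 to 1.60. The Ifitm genes, the Ifit genes and the Schlafen genes are each related in sequence, so reads may be shared within each of these families.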
